A study of Mus musculus with 6 samples.

Results

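Ly49 and NKG2 genes encode lectin-like receptors by which natural killer (NK) cells and some T cells read MHC class I molecules. The 10 genes described here were chosen by symbol from the 31053 genes of the count matrices: 7 Ly49 genes (Klra1, Klra3, Klra4, Klra6, Klra7, Klra8 and Klra9) and the NKG2 group of Klrc1, Klrc2 and Klrd1. Their levels were read in droplet-based single-cell RNA libraries whose labeled source is the YUMM2.1 mouse melanoma cell line. One library was labeled Empty vector (EV, hashtags h1, h7 and h8) and the other Bmal1 WT (WT, hashtags h3, h5 and h9), Bmal1 being a transcription factor of the circadian clock. In the study's other experiments an empty vector or wild-type Bmal1 was put both into YUMM2.1 cells with their own Bmal1 and into a Bmal1-null clone of them, aC3. The labels do not say which of these backgrounds was used, and they give no host, tissue, age or time for the cells analyzed here. Files labeled Bmal1 bHLH were identical to the WT files in 3 of 3 cases and were not used.

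In EV, 4147 cell barcodes shared 34232927 gene UMIs (unique molecular identifiers, each a counted transcript), and in WT 2785 barcodes shared 39561569. Filtering on genes and mitochondrial content kept 3978 EV cells, at a median depth of 5094 UMIs, and 2386 WT cells, at 7570.5. The libraries had 3 barcodes in common. A hashtag antibody marks the cells of 1 pooled sample, and 3222 EV and 1621 WT cells carried exactly 1 hashtag. Each library was 1 droplet channel, so the vector and the channel cannot be told apart, and whether a hashtag stands for an animal or a culture is not stated. The p-values therefore measure the spread between hashtag replicates. Immune cells made up most of the gated cells although the labeled source is a melanoma line. NK cells were cells with at least 2 UMIs of Ncr1, Klrb1c and Eomes together and no Cd3e or Cd3d UMI, which took 1029 EV and 396 WT cells. T cells were those with at least 1 Cd3e or Cd3d UMI, which took 1191 EV and 417 WT cells. Of the markers fixed for each class, 13 of 13 NK markers and 9 of 10 T cell markers were higher in their own cells than in the others in both libraries. These markers included the gate genes (Ncr1, Klrb1c and Eomes for NK cells, Cd3e and Cd3d for T cells), whose result the gate itself favored or fixed.

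As background, the Ly49 family lies in the natural killer gene complex, and an NK cell switches on a variable handful of its members, so that neighboring cells carry different sets. Klra1 (Ly49A), Klra3 (Ly49C), Klra6 (Ly49F), Klra7 (Ly49G) and Klra9 (Ly49I) carry an inhibitory motif that recruits phosphatases when the receptor meets self MHC class I. Klra4 (Ly49D) and Klra8 (Ly49H, the receptor for a cytomegalovirus protein) lack that motif and signal through the adaptor DAP12, encoded by Tyrobp. Klrd1 encodes CD94, which pairs with the inhibitory NKG2A (Klrc1) or the activating NKG2C (Klrc2) and binds the nonclassical class I molecule Qa-1, encoded by H2-T23.

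All 10 genes lie on chromosome 6 within 795 kb (GRCm38 coordinates from GENCODE M21). The Ly49 members span 130013033 to 130386874, all on the minus strand, a stretch of 374 kb that holds 8 protein-coding genes. Klra4 (130043731 to 130067271) and Klra8 (130115226 to 130129898) lie 48.0 kb apart. Klrc1 (129666015 to 129678973) and Klrc2 (129647496 to 129660689) lie 5.33 kb apart, and Klrd1 (129591782 to 129598775) is on the plus strand. The family arose by duplication, and some 3′ ends are shared. Of the 90-base windows over the last 500 bases of the transcripts, 32.6% of those of Klrc1 also occurred in Klrc2, 14.1% of those of Klra9 and 10.2% of those of Klra7 occurred in another gene, mostly a Klra pseudogene, and 8.52% of those of Klra3 did. None of the windows of Klra1, Klra4, Klra6, Klra8, Klrc2 or Klrd1 was shared. Counts of Klrc1, Klra9, Klra7 and Klra3 are uncertain to that extent.

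The promoters of Klra4, Klra8 and Klrc1 are shown because the co-detection results below turn on these genes. They are RefSeq windows of 300 bases on GRCm38.p6 (250 before to 50 after the start, minus strand, written 5′ to 3′), at chr6:130067222-130067521 for Klra4, chr6:130129849-130130148 for Klra8 and chr6:129678924-129679223 for Klrc1. In the Klra4 and Klra8 lines capitals mark the 41 bases of each that have no identical partner in the alignment of the pair. In the Klrc1 line capitals mark a match to the Runx motif TGTGGT or its reverse complement ACCACA.

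Klra4: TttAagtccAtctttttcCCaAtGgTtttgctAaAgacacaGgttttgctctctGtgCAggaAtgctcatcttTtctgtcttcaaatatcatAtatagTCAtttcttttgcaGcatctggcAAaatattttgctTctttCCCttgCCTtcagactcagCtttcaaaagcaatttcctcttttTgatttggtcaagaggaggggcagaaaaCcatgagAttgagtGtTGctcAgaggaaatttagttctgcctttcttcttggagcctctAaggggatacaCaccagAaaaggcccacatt
Klra8: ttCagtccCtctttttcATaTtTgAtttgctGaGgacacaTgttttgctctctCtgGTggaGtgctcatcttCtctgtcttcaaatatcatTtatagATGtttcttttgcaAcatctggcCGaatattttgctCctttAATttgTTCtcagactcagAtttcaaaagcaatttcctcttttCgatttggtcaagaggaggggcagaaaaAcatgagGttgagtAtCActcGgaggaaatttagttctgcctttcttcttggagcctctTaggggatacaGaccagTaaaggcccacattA
Klrc1: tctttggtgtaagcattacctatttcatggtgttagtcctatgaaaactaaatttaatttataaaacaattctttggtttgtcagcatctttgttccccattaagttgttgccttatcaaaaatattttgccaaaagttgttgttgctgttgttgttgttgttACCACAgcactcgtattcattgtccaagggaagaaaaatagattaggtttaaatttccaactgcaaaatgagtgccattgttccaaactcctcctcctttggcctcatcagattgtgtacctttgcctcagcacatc

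Of the 10 genes 9 had a promoter in the table, 12 promoters in all. The Klra4 and Klra8 windows shown were identical at 86.3% of aligned positions, and the other Klra8 window matched Klra4 at 70%. Among pairs of different members the Klra3 and Klra9 windows alone were more alike (90.3%). The closer Klra7 window matched the Klra8 window shown at 77.0% and Klra4 at 76.7%, and the other Klra7 window matched them at 52.3% and 51.3%. The Klra4 and Klrc1 windows matched at 52.3%. The Runx motif was in 16.8% of 32851 mouse promoters of the same length. It occurred in the windows of Klrc1, Klrc2 and Klra1 and not in those of Klra3, Klra4, Klra6, Klra7, Klra8 or Klra9. A TCF motif (CTTTGA, 16.0% of promoters, both strands searched) occurred in the windows of Klra6 and Klra7, and a T-box motif (GGTGTG, 19.0%) in those of Klra1 and Klra4. No overlap between motifs was counted, and a match is a description of letters, not a site.

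Klrd1 had the highest level of the 10 genes in NK cells and Klra6 the lowest. Levels were UMIs summed over the NK cells of 1 hashtag replicate and scaled to 1000000 gene UMIs (CPM); in 3′ tag counting a transcript gives about 1 tag whatever its length, so no length correction was applied. Klrd1 was at 813, 798 and 986 CPM in the EV replicates h1, h7 and h8 and at 748, 719 and 819 CPM in the WT replicates h3, h5 and h9. All 6 values were high and the groups overlapped.

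The activating receptor genes came next. Klra4 was at 775, 656 and 710.0 CPM in EV and at 408, 738 and 618 CPM in WT. Klra8 was at 564, 632 and 717 CPM in EV and at 337, 661 and 512 CPM in WT. WT h3 was the lowest replicate for both genes, and the groups overlapped in both. Together Klra4 and Klra8 gave 1351 ± 70.1 CPM (SD, n = 3) in EV and 1091 ± 329 CPM in WT, and the 5 inhibitory Ly49 genes 969.9 ± 64.0 CPM in EV and 779 ± 45.3 CPM in WT.

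Among the inhibitory members Klra7 was highest, at 425, 515 and 505 CPM in EV and at 422, 404 and 346 CPM in WT. Klra9 was at 261, 249 and 271 CPM in EV and at 215, 181 and 187 CPM in WT. Klra3 was at 91.1, 96.3 and 96.1 CPM in EV and at 88.9, 65.8 and 89.4 CPM in WT. The EV values of these 3 genes all lay above the WT values, as did those of the inhibitory Ly49 sum (899 to 1023 CPM against 746 to 831 CPM) and of the sum of all 7 genes (2239 to 2415 CPM against 1576 to 2159 CPM). The share of all genes whose groups stood apart in this way is not given here, so no difference is read from it. By edgeR 0 of the 10 members were called between WT and EV NK cells, as described below. Klra1 ranged from 81.3 to 148 CPM and Klra6 from 8.02 to 42.7 CPM over the 6 replicates, with overlapping groups.

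Of the NKG2 pair, the activating partner gene had the higher counts. Klrc2 was at 370.5, 352 and 442 CPM in EV and at 276, 361 and 242 CPM in WT. Klrc1 was at 287, 282 and 236 CPM in EV and at 205, 218 and 239.9 CPM in WT. Klrc2 was higher than Klrc1 in 6 of 6 replicates. Of the 3′ windows of Klrc1 32.6% also occur in Klrc2, while none of those of Klrc2 is shared. Reads lost to that overlap could lower Klrc1 alone, and their part in this order was not tested.

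**Figure D1:**
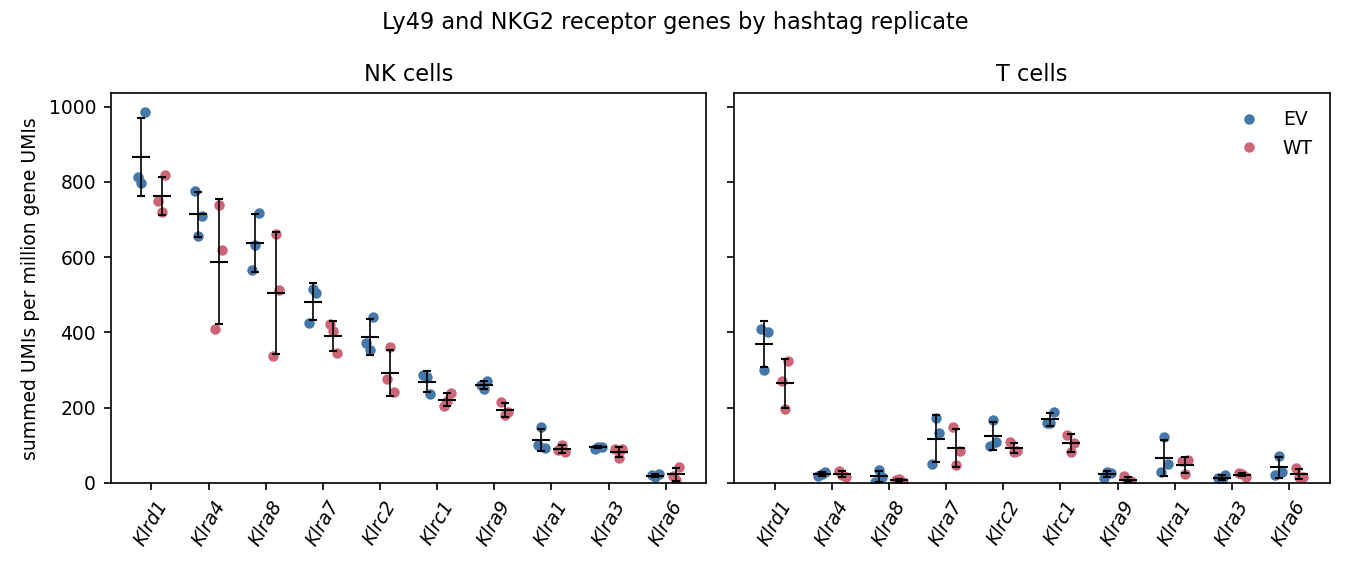
Levels of the 10 receptor genes in NK cells (left) and T cells (right), as summed UMIs in CPM. Each point is 1 hashtag replicate (blue EV, red WT), the horizontal line is the mean and the bar the SD of 3 replicates. In NK cells Klrd1, Klra4 and Klra8 lie highest and Klra6 lowest, and the EV and WT points of most genes overlap.

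By mean level over the 6 replicates the order was Klrd1 (814 ± 92.9 CPM, SD, n = 6), Klra4 (651 ± 132), Klra8 (571 ± 135), Klra7 (436 ± 63.9), Klrc2 (341 ± 71.6), Klrc1 (245 ± 33.2), Klra9 (227 ± 38.5), Klra1 (102 ± 23.8), Klra3 (87.9 ± 11.3) and Klra6 (21.01 ± 11.8). Neighbors in this order were compared by an exact two-sided sign-flip permutation test over the 6 replicates, which cannot go below p = 0.03125. The order held in 6 of 6 replicates for 4 of 9 neighboring pairs: Klra7 over Klrc2, Klrc2 over Klrc1, Klra9 over Klra1 and Klra3 over Klra6 (p = 0.03125 each, 0.0703 after Benjamini-Hochberg adjustment over the 9 exact tests). Klrc1 and Klra9 did not differ beyond their spread (exact p = 0.28125), nor did Klra1 and Klra3 (exact p = 0.28125). The other 3 pairs held their order in 5 of 6 replicates (exact p = 0.0625 each). After adjustment 0 of the 9 pairs passed 0.05. The order of Klrc2 and Klrc1 is also uncertain because Klrc1 shares 3′ sequence with Klrc2.

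To compare cells at 1 depth, each cell was thinned to 2000 gene UMIs, which left 1146 NK and 1333 T cells with a hashtag. A thinned NK cell held UMIs of 1.91 ± 0.107 different Ly49 genes (SD, n = 6, range 1.75 to 2.06). Of the NK cells 16.5% ± 2.98 held none, 20.3% ± 4.60 held 1, 29.1% ± 3.97 held 2, 24.6% ± 5.48 held 3, 8.48% ± 2.64 held 4 and 1.02% ± 0.474 held 5. The highest number detected in a cell was 5 of 7. Cells without a detected Ly49 gene were more frequent than the product of the 7 shares lacking each gene, which was 8.95% ± 1.78.

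Many different sets of Ly49 genes occurred. Of the 127 possible non-empty combinations 73 were seen in the 1146 cells, and the 10 most frequent states, the empty one included, took 58.2% of the cells. Klra7 alone was found in 78 cells, Klra4 with Klra7 and Klra8 in 69, Klra4 with Klra8 in 57, Klra4 with Klra7 in 55, Klra7 with Klra8 in 51 and Klra9 alone in 51. Inhibitory and activating Ly49 genes occurred together in 50.4% ± 3.86 of NK cells, inhibitory ones without an activating one in 19.8% ± 5.95, and activating ones without an inhibitory one in 13.3% ± 3.89. Neither a Ly49 gene nor Klrc1 was detected in 7.54% ± 1.64. At this depth an undetected gene is not an absent one.

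The activating genes had the widest gap between the share of cells without a UMI and the share an even level would leave. Klra4 UMIs were missing from 57.4% of thinned NK cells (range 55.1 to 62.1 over 6 replicates), where an even level of the same mean would leave 23.9% without. For Klra8 these values were 53.5% and 28.1%, and for Klra7 56.5% and 39.2%. Positive cells held 3.39 Klra4 UMIs on average, 2.79 Klra8 UMIs and 2.17 Klra7 UMIs. Klra9 (69.4% against 55.3%) and Klrc1 (67.9% against 54.8%) had smaller gaps. For Klrc2 (50.8% against 41.8%) and Klrd1 (23.2% against 16.6%) the gap was below 10 percentage points, and the rare Klra1, Klra3 and Klra6 gave gaps of 8.33, 6.72 and 1.21 points. A gap cannot exceed the share of cells that an even level would fill, so it must be small for rare genes. The order of the gaps therefore also follows the level, and does not rank the genes by unevenness alone. These gaps are descriptions, with no test.

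Klra4 and Klra8 UMIs tended to occur in the same NK cells, and both tended to be missing where Klrc1 was present. Odds ratios were pooled over the 6 replicates on thinned cells; an odds ratio above 1 means that cells with 1 gene hold the other more often. For Klra4 with Klra8 it was 2.78, with replicate values from 1.498 to 3.82, above 1 in 6 of 6 replicates (294 cells with both). For Klra4 with Klrc1 it was 0.297, from 0.147 to 0.486, below 1 in 6 of 6 replicates (84 cells with both, 408 with Klra4 alone, 268 with Klrc1 alone). For Klra8 with Klrc1 it was 0.432 (0.270 to 0.758), and for Klra7 with Klrc1 0.523 (0.223 to 0.894), both below 1 in 6 of 6 replicates. These pairs were singled out after their values had been seen, so they are described and not tested. The cells share depth and gate, and those of 1 replicate also share a library.

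Across families the sign of the pooled value in NK cells mostly went with the gene. All 7 Ly49 genes had an odds ratio below 1 with Klrc1 (median 0.523), from 0.297 for Klra4 to 0.917 for Klra9. Of these pairs 3 lay below 1 in 6 of 6 replicates, and the replicate values of Klra9 ranged from 0.634 to 2.47. With Klrc2, 6 of 7 lay above 1 (median 1.29), Klra4 being the exception at 0.954, and 2 did so in 6 of 6 replicates. Of the 21 pairs of Ly49 genes 15 lay above 1 (median 1.18). Klra4 with Klra8 and Klra6 with Klra7 (1.86) were the 2 that did so in 6 of 6 replicates. The second pair rests on 20 cells with both genes and 14 with Klra6 alone, so its count of replicates means little. With so few cells a replicate value can exceed 1 without shared cells. Klra3 with Klra6 did so in 6 of 6 replicates of NK cells with the granzyme gene Gzmc, where 0 cells held both. Klrc1 with Klrc2 gave 1.30 (0.878 to 1.81), which is uncertain because these genes share 3′ sequence. In T cells the Ly49 pairs with Klrc1 lay on both sides of 1, from 0.572 for Klra3 to 1.74 for Klra7. Those with Klrc2 ran from 2.06 for Klra8 to 6.56 for Klra1.

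**Figure D2:**
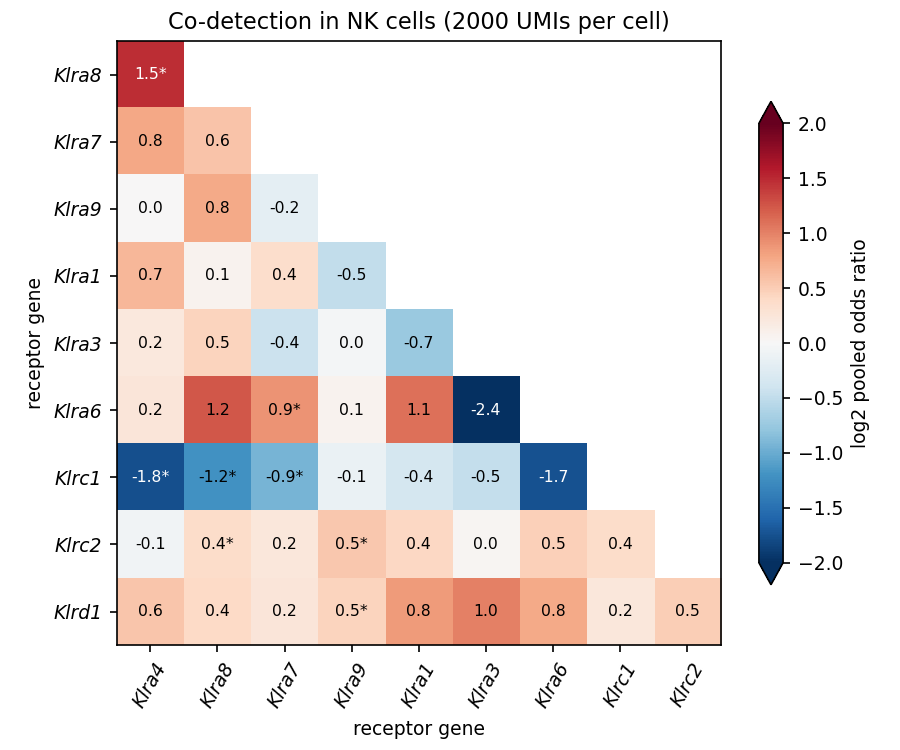
Co-detection of the receptor genes in 1146 NK cells thinned to 2000 UMIs. Each square gives the log2 of the odds ratio pooled over 6 hashtag replicates (red above 0, blue below, colors end at -2 and 2), and an asterisk marks pairs with the same sign in 6 of 6 replicates. Klra4 with Klra8 is positive with an asterisk, while the Klrc1 row is negative for all 7 Ly49 genes and carries asterisks for Klra4, Klra8 and Klra7. The asterisk of Klra6 with Klra7 rests on few cells.

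On average Klrc1 was rarer where more Ly49 genes were detected in the cell. It was found in 53.2% ± 12.8 (SD, n = 6) of NK cells without a Ly49 UMI, in 40.6% ± 10.1 of those with 1 Ly49 gene, in 32.3% ± 6.92 of those with 2 and in 16.3% ± 6.03 of those with 3 or more. WT h5, with 13 cells lacking Ly49, gave the lowest share in that class (30.8%) and departed from the order there, and in EV h7 the share was higher with 2 Ly49 genes (36.7%) than with 1 (32.4%); in 6 of 6 replicates the share was lower with 3 or more Ly49 genes than with none. Klrc2 went the other way, from 39.2% ± 8.51 without to 55.0% ± 4.85 with 3 or more, and Klrd1 went from 65.9% ± 8.51 to 81.0% ± 6.101. Cells with Klra4 or Klra8 held Klrc1 in 22.8% ± 6.62 of cases, and cells with neither in 47.5% ± 9.11.

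**Figure D3:**
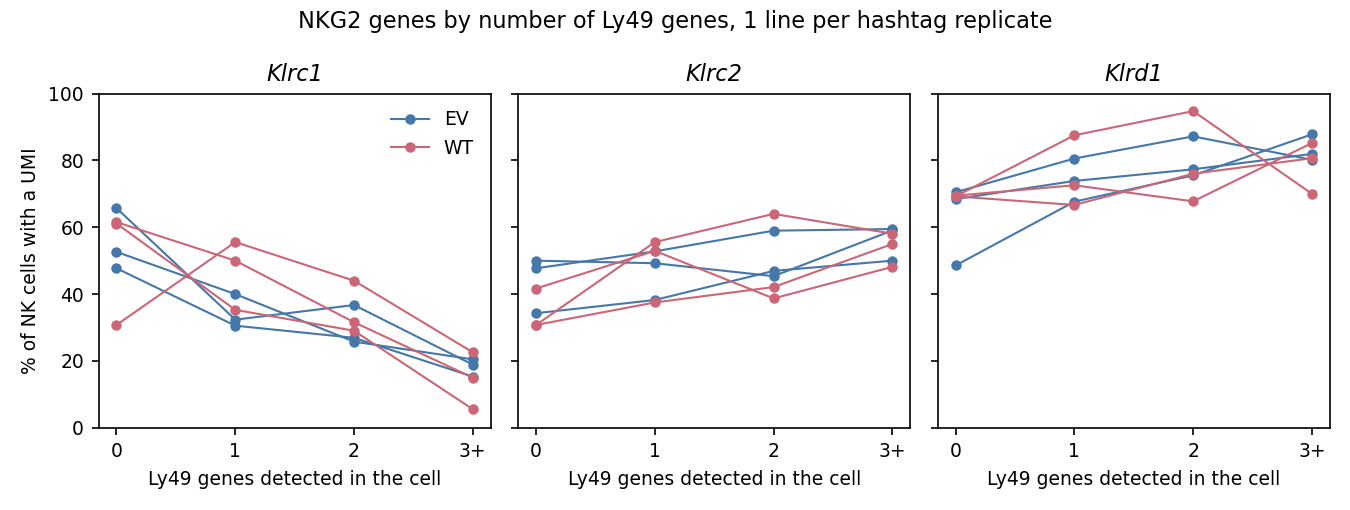
Share of thinned NK cells with a UMI of Klrc1, Klrc2 or Klrd1 by the number of Ly49 genes detected in the same cell, 1 line per hashtag replicate (blue EV, red WT). The Klrc1 lines fall to between 5.56% and 22.6% at 3 or more Ly49 genes, while the Klrc2 and Klrd1 lines end above where they began in 6 of 6 replicates.

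Split by Klrc1, NK cells differed in the activating Klra4 and Klra8 and in Klra7. UMIs of 352 Klrc1-positive and 794 Klrc1-negative thinned NK cells were summed per hashtag replicate and compared by edgeR's quasi-likelihood test with the replicate as a block. This comparison was added after the low co-detection had been seen, in the same cells, and is no independent support for it. It called 3 of 9 members (all lower), where 0.386% of 8030 genes were called. Klra4 was at -1.42 ± 0.11 on the log2 scale (SE, adjusted p = 6.19e-33, the smallest of the genes tested). Klra8 was at -0.76 ± 0.11 (adjusted p = 9.64e-09) and Klra7 at -0.62 ± 0.12 (adjusted p = 0.000318). Klra9 (0.10 ± 0.14), Klrc2 (0.28 ± 0.12) and Klrd1 (0.05 ± 0.09) were not called, nor were Klra1, Klra3 and Klra6, at -0.33, -0.47 and -1.28. Without the block Klra4 alone was called. Of the genes called 19 were higher and 12 lower, which became 10 and 20 with TMM scaling.

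Of the lists tested beside the members in that split, the other lectin receptors gave 1 of 12 higher, Klrb1b (0.96), an inhibitory receptor. Of the tissue residency list 2 of 8 were higher, the chemokine receptor gene Cxcr6 (2.53) and the interleukin-7 receptor gene Il7r (2.34). Id2 (0.34), a regulator of innate lymphoid cells, was the 1 of 12 transcription factors called, and the chemokine receptor gene Cx3cr1 (1.41) the 1 of 9 NK maturity genes. Of 15 adaptors and 7 ligand genes, 0 were called at an adjusted p under 0.05 by edgeR. The summed level of 5 dendritic cell markers was 0 to 57.4 CPM in Klrc1-positive and 4.46 to 38.5 CPM in Klrc1-negative cells, and that of 5 macrophage markers 0 to 6.17 CPM and 6.70 to 244 CPM. Of the 10 T cell markers 4, the gate genes Cd3e and Cd3d among them, were at 0 in the positive cells, with sums of 643 to 1259 CPM against 727 to 962 CPM. The part of these markers in the result was not tested.

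Klrd1 UMIs without a UMI of Klrc1 or Klrc2, the only partner genes counted here, were common in thinned cells. After thinning, an undetected gene is not an absent one. Over all thinned NK cells, a mean of 67.9% lacked a Klrc1 UMI and 50.8% lacked a Klrc2 UMI. Whether Klrd1-positive cells with neither were more frequent than these shares alone would give was not tested. Of 882 thinned NK cells with Klrd1, 15.0% ± 3.06 held Klrc1 alone, 33.6% ± 4.16 Klrc2 alone, 18.2% ± 2.89 both and 33.2% ± 5.73 neither. In 510 T cells with Klrd1 the shares were 21.3% ± 3.65, 16.5% ± 4.26, 13.6% ± 5.23 and 48.6% ± 3.84. Among the 292 CD8 T cells with Klrd1, Klrc1 alone (27.9% ± 6.35) was more frequent than Klrc2 alone (10.3% ± 6.16), the reverse of the order in NK cells. That difference of order was not tested, and Klrc1 counts are uncertain because of the 3′ sequence shared with Klrc2.

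NK cells held more of most members than T cells, and the margin was widest for the activating receptors. Of the 10 members 9 were higher in NK cells (edgeR, replicate block), where 19.8% of 12293 genes were called, 807 higher and 1627 lower (1140 and 1275 with TMM scaling). Klra8 was higher by 5.63 ± 0.30 on the log2 scale (adjusted p = 3.00e-07) and Klra4 by 4.76 ± 0.19 (adjusted p = 2.91e-08). Klra9 was higher by 3.85 ± 0.22, Klra3 by 2.35 ± 0.22, Klra7 by 2.17 ± 0.21, Klrc2 by 1.67 ± 0.14, Klrd1 by 1.39 ± 0.10, Klra1 by 0.98 ± 0.22 and Klrc1 by 0.84 ± 0.12. Klra6 went the other way, at -0.69 ± 0.35 (adjusted p = 0.2002), and was called lower without WT h9 (-0.97). Without the block Klra1 was not called.

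The pathway around the receptors moved in the same comparison in both directions. Of 14 other lectin receptors tested 9 were higher in NK cells and 1 lower, with Klrb1b at 4.13, Klrb1f at 3.21, Klrb1a at 3.02 and Klri2 at 2.81. Of 15 adaptors 7 were higher and 3 lower, among them Sh2d1b1 (2.99), Tyrobp (2.89), which encodes DAP12, the kinase gene Syk (2.50) and Fcer1g (2.39). Of the 7 class I ligand and peptide-loading genes 3 were lower: Tap1 (-0.45), Tap2 (-0.37) and H2-T23 (-0.26). Of 11 transcription factors 5 were higher and 3 lower, among them Irf8 (2.94), Tbx21 (1.08), Id2 (0.81) and Tcf7 (-0.73). The NK maturity list gave 6 higher and 3 lower of 9, led by Gzma (4.04), Prf1 (2.87), S1pr5 (2.23) and Itgam (2.15), and the tissue residency list 4 higher and 5 lower of 10, with Ccr8 (-5.69), Cxcr6 (-4.25), Il7r (-4.10) and Gzmc (3.48). The list medians were 1.45, 0.29, 0.01, 0.37, 0.99 and -0.63 in that order, beside -0.14 over all genes.

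Among Trdc-positive, CD8 and CD4 T cells, the share with a Ly49 gene was highest in the Trdc-positive and lowest in the CD4 cells. T cells in none of these classes were left out of this ranking. They held 142 of the 302 EV and 59 of the 111 WT T cells with a Ly49 UMI at full depth. Trdc encodes the constant part of the gamma-delta T cell receptor. At 2000 UMIs a Ly49 UMI was found in 18.7% ± 4.42 of T cells, in 49.3% ± 21.3 of Trdc-positive T cells, in 10.6% ± 7.31 of CD8 T cells and in 2.41% ± 2.36 of CD4 T cells (SD, n = 6 each). In macrophage-marker cells (at least 5 UMIs of C1qa, C1qb and C1qc together), which should lack the genes, Klra7 UMIs were found in 1 of 82 EV cells (median depth 11188.5 UMIs) and in 3 of 90 WT cells (median 13384). In Trdc-positive T cells the inhibitory Klra7 was in 27.0% ± 12.9 of cells, Klra1 in 16.6% ± 10.1 and Klra6 in 12.2% ± 7.76; the WT replicates held 6 to 11 such cells each. Activating Ly49 genes without an inhibitory one were found in 1.15% ± 0.470 of all T cells.

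Not all of these cells were clear of NK markers. Of the 302 EV T cells with a Ly49 UMI at full depth, 78 were CD8, 21 CD4 and 72 Trdc-positive, and 142 were none of these; 211 also held an NK-marker UMI. Of the 111 WT T cells with a Ly49 UMI, 32 were CD8, 5 CD4 and 18 Trdc-positive, 59 were none of these, and 81 held an NK-marker UMI. The 13 NK markers summed to 2967 to 3562 CPM in EV T cells and 2275 to 3455 CPM in WT T cells, against 13037 to 15936 and 9813 to 15065 CPM in NK cells. Doublets of NK and T cells were not removed, and their part in the result was not tested.

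CD8 T cells (Cd8a or Cd8b1 without Cd4) held more of 6 members than CD4 T cells (Cd4 without Cd8a and Cd8b1), of 9 tested, where 5.39% of 10720 genes were called (edgeR, replicate block), 204 higher and 374 lower (280 and 320 with TMM scaling). Klrc1 was higher by 4.60 ± 0.27 on the log2 scale (adjusted p = 3.19e-06), Klrc2 by 4.16 ± 0.38 (adjusted p = 4.17e-05) and Klrd1 by 3.49 ± 0.33 (adjusted p = 5.20e-05). Klra7 was higher by 2.92 ± 0.50 (adjusted p = 0.00473). Klra6 had 159 UMIs in CD8 and 0 in CD4 T cells, which makes it at least 28.6-fold higher against a floor of 3 UMIs over the group. Klra1 had 73 UMIs against 1, a ratio of 39.4 with an exact counting interval of 6.84 to 1575, and its call was lost with DESeq2, without the block and without EV h7 or WT h3. Klra3, Klra4 and Klra9 were not called, and Klra8, with 10 and 7 UMIs, fell below the filter of 20 UMIs.

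Of the lists, 7 of 13 other lectin receptors were higher in CD8 T cells and 1 lower, with Klra5 (6.62), Klre1 (4.31), Klri2 (3.65) and Klrb1a (3.42) leading. Of 14 adaptors 2 were higher, Ptpn6 (1.34), the phosphatase that inhibitory receptors recruit, and Hcst (0.58). The NK maturity list gave 3 higher and 1 lower of 9 (Ly6c2 3.15, Gzma 2.81, Prf1 2.55, Klrg1 -1.40), the tissue residency list 5 higher and 1 lower of 10 (Gzmc 3.78, Cd160 3.32, Itga1 2.36, Xcl1 2.20), and the transcription factors 3 higher and 2 lower of 12 (Gata3 -2.01, Eomes 1.81, Runx3 1.15, Tbx21 1.03). Of 7 ligand genes 0 were called by edgeR at an adjusted p under 0.05.

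NK cells with a UMI of Gzmc, a granzyme gene, held less Klrc2. In 123 Gzmc-positive against 1105 Gzmc-negative NK cells 3 of 10 members were lower and 0 higher, where 8.43% of 10325 genes were called (edgeR, replicate block). Klrc2 was at -0.95 ± 0.13 on the log2 scale (adjusted p = 2.76e-06), Klra4 at -0.56 ± 0.17 (adjusted p = 0.0382) and Klrc1 at -0.53 ± 0.16 (adjusted p = 0.0309). Klrc2 was lower in both libraries, with means of 222 against 409 CPM in EV and 168 against 341 CPM in WT. For Klra4 the gap lay in EV (406 ± 295 against 757 ± 21.3 CPM, SD, n = 3) and not in WT (575 ± 186 against 596 ± 156 CPM). Klrc1 had the wider gap in WT (149.6 ± 53.5 against 252 ± 10.2 CPM) than in EV (241 ± 77.6 against 271 ± 22.2 CPM). The difference of the contrast between WT and EV was 0.99 for Klra4 (edgeR interaction, unadjusted p = 0.00024, adjusted p = 0.175) and -0.73 for Klrc1 (unadjusted p = 0.0154, adjusted p = 1). The other members lay between -0.91 (Klra6) and -0.10 (Klrd1), with a median over the 10 of -0.41 beside -0.08 over all genes. The calls of Klra4 and Klrc1 were lost with DESeq2, without the block and without EV h8, and further that of Klra4 without EV h1 or EV h7 and that of Klrc1 without WT h3 or WT h5. Klrc2 was called under all these settings; with at least 3 Gzmc UMIs required, 7 members were called lower. In EV the Gzmc-positive NK cells had a median of 8109 UMIs against 4340 in the others, and 5 macrophage markers summed to 0 to 13.2 CPM against 4.93 to 498 CPM; their part in the result was not tested.

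In the same split the NK maturity list gave 6 lower and 1 higher of 9, with S1pr5 (-3.62), Cx3cr1 (-2.46), Gzma (-1.43) and Itgam (-1.41). Of 14 other lectin receptors 2 were higher and 6 lower, with Klra5 (1.92), Klrb1a (-1.25), Klrg1 (0.91) and Klri2 (-0.73), and of 12 transcription factors 6 were lower, with Tcf7 (-1.74), Prdm1 (-1.30), Zeb2 (-1.08) and Eomes (-0.67). Of 8 tissue residency genes 2 were higher, Cxcr6 (2.48) and Itga1 (0.99). Of 15 adaptors 5 were lower, led by Ptpn11 (-0.91) and Fyn (-0.86), and of 7 ligand genes H2-D1 (-0.35) was lower.

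The comparison of WT with EV asks whether Bmal1 in the melanoma line went with another receptor repertoire. In NK cells 0 of 10 members were called (edgeR, adjusted p under 0.05), where 0% of 10326 genes were called; 4 members and 1316 genes had an unadjusted p under 0.05, and DESeq2 called 110 genes and 0 members. The member of smallest p was Klra9 (-0.41 ± 0.12 on the log2 scale, adjusted p = 0.226). Klrc2 was at -0.41 ± 0.16, Klra8 at -0.36 ± 0.21, Klra4 at -0.29 ± 0.19, Klrc1 at -0.29 ± 0.13 and Klrd1 at -0.19 ± 0.12. Of the 10 estimates 9 were negative, with a median of -0.29 beside -0.08 over all genes. NK cells had a median of 4468 UMIs in EV and 6332 in WT, and their 10 T cell markers summed to 864 to 914 CPM in EV and 659 to 759 CPM in WT. Gzmc-positive cells were 62 of 1029 NK cells in EV and 72 of 396 in WT. The part of each of these in the values was not tested.

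In T cells 0 of 10 members were called, where 0% of 11691 genes were called; 2 members and 1378 genes had an unadjusted p under 0.05, and DESeq2 called 123 genes and 0 members. The median over the members was -0.48 beside -0.06 over all genes. Klrc1 was at 159, 159 and 189 CPM in the EV replicates and at 128, 81.6 and 107 CPM in WT, so that the groups did not overlap, and its estimate was -0.68 ± 0.18 (adjusted p = 0.330). The share of all genes whose groups did not overlap is not given for T cells either. Klrd1 was at -0.50 ± 0.20 (adjusted p = 0.394) and Klra3 at 0.70 ± 0.36 (adjusted p = 0.495). Of the 6 lists, 0 genes were called in NK or in T cells by edgeR; their medians lay between -0.26 and -0.17 in NK cells and between -0.62 and -0.10 in T cells.

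Of the shares at 2000 UMIs, 6 values were compared between the groups, and all 6 overlapped. Exact two-sided permutation tests of 3 against 3 replicates cannot go below p = 0.1, so none could pass 0.05. A Ly49 UMI was found in 85.1% ± 1.75 of EV and 81.9% ± 3.38 of WT NK cells (exact p = 0.2). The mean number of Ly49 genes per NK cell was 1.97 ± 0.077 and 1.85 ± 0.107 (exact p = 0.3). Klrc1 was found in 30.3% ± 3.38 and 33.9% ± 3.49 of NK cells (exact p = 0.3), and Klrd1 in 77.4% ± 2.90 and 76.2% ± 3.32 (exact p = 0.5). In T cells a Ly49 UMI was found in 19.2% ± 5.85 and 18.3% ± 3.74 (exact p = 0.9) and Klrd1 in 37.8% ± 9.38 and 35.8% ± 5.21 (exact p = 0.8). After adjustment over the 6 values all p lay at or above 0.6. With hashtags taken from the highest centered log count, the groups did not overlap for the NK share with a Ly49 UMI (85.9% ± 1.08 in EV, 80.3% ± 4.57 in WT) or with Klrc1 (29.2% ± 1.47 and 33.8% ± 2.20), each at exact p = 0.1, the smallest possible. Some other shares, which were not tested, also stood apart. An inhibitory Ly49 gene was found in 73.1% to 73.6% of EV and 64.4% to 71.4% of WT NK cells. Klra4 was found in 43.75% to 44.9% and 37.9% to 43.7% of NK cells, so its nearest values were almost equal. Klrc1 was found in 20.3% to 24.2% and 12.3% to 19.1% of T cells. In Trdc-positive T cells Klra7 went the other way, with 10.4% to 25.6% in EV and 27.3% to 50% in WT. These shares were picked for standing apart, and how many others overlapped is not given here. Whether a contrast between cell classes differed between WT and EV was tested by an interaction term in edgeR for 38 member tests, of which 0 were called (8 unadjusted, smallest adjusted p = 0.175).

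Outside NK and T cells most members were close to 0, with Klra4 and Klrd1 as exceptions. Melanoma-marker cells (at least 1 UMI of Sox10 or Erbb3, without Ptprc and the NK and T cell genes) numbered 109 in EV and 264 in WT. They held 436 Klra4 UMIs in EV (121 CPM, 27 of 109 cells) and 765 in WT (75.2 CPM, 68 of 264 cells), with up to 93 and 106 in a cell. The same cells held 2 and 3 Klra8 UMIs and 4 and 2 Klra7 UMIs. In NK cells Klra4 and Klra8 were nearly even, with 4387 and 3924 UMIs in EV and 1742 and 1433 in WT.

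The Klra4 UMIs of melanoma-marker cells lay in the deeply sequenced cells. Cells with Klra4 had a median of 64493 UMIs in EV and 60729.5 in WT, against 6199 and 11703.5 in those without. Of cells with at least 20000 UMIs, 18 of 39 in EV and 58 of 137 in WT held Klra4, with medians of 15.5 and 7 Klra4 UMIs in the positive ones. Sox10 UMIs were found in 26 of 27 EV and 66 of 68 WT cells with Klra4, and in 75 of 82 and 191 of 196 cells without it. The gate used Sox10, so these shares do not help to tell what the cells are. Cytotoxic genes gave 1.76 and 1.59 CPM in the cells with Klra4 against 8688 and 7462 CPM in NK cells. In WT 20 of 188 fibroblast-marker cells (at least 10 collagen UMIs of Col1a1, Col1a2 and Col3a1) also held Klra4 (86 UMIs), and in dendritic-marker cells 93 of 103 EV and 43 of 43 WT Klra4 UMIs came from 1 cell of each library. Of the EV melanoma-marker cells 69 of 109 carried no hashtag, so these values were not tested between groups.

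**Figure D4:**
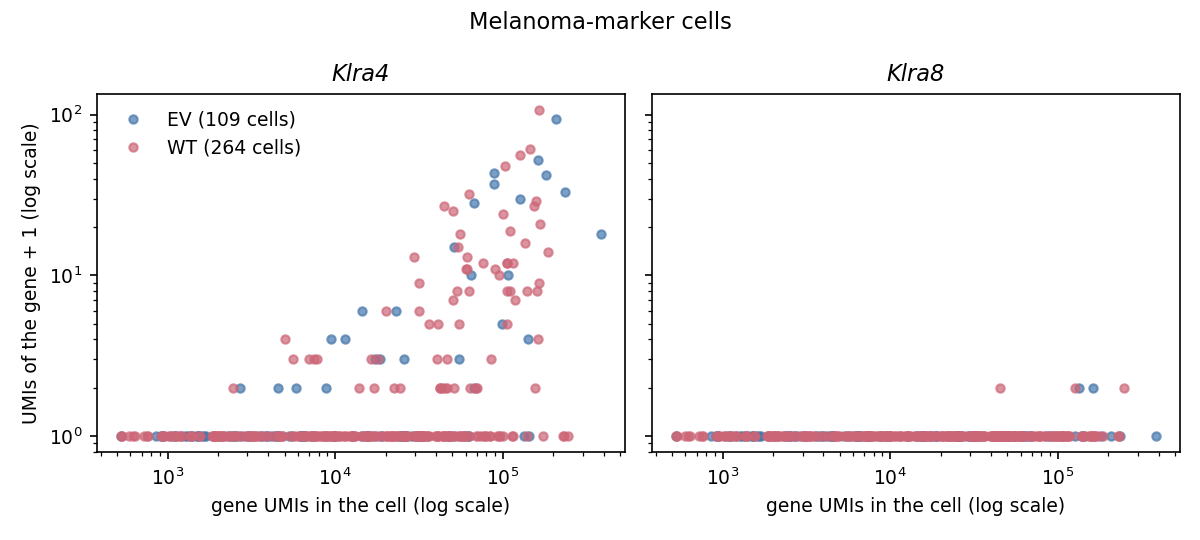
Klra4 (left) and Klra8 (right) UMIs plus 1 against gene UMIs per melanoma-marker cell, both axes on a log scale, 1 point per cell (blue EV, 109 cells; red WT, 264 cells). Klra4 counts reach 93 and 106 UMIs and lie in cells of high depth, while the same cells hold 2 and 3 Klra8 UMIs in all.

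Klrd1 was the other exception. Dendritic-marker cells (at least 2 UMIs of Flt3, Xcr1, Clec9a, Ccr7 and Siglech together, without the NK, T, B cell and macrophage gates) held it in 118 of 340 EV cells (34.7%, exact 95% interval 29.7 to 40.0, counting error alone) and in 47 of 198 WT cells (23.7%, 17.99 to 30.3), at 88.2 and 73.0 CPM. A single cell held up to 32 Klrd1 UMIs in EV and up to 67 in WT. With Siglech, a marker of plasmacytoid dendritic cells, the share was 29 of 59 cells in EV and 12 of 16 in WT. Macrophage-marker cells held it in 2 of 82 and 6 of 90 cells. At 2000 UMIs the shares were 46 of 312 and 16 of 172 dendritic-marker cells against 2 of 79 and 3 of 75 macrophage-marker cells. Ncr1 and Cd3e were at 0 CPM in dendritic-marker cells, as the gate requires, and Nkg7 and Gzma, which the gate did not use, were at 4.03 CPM each in EV cells with Klrd1 and at 2.23 CPM each in WT.

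**Figure D5:**
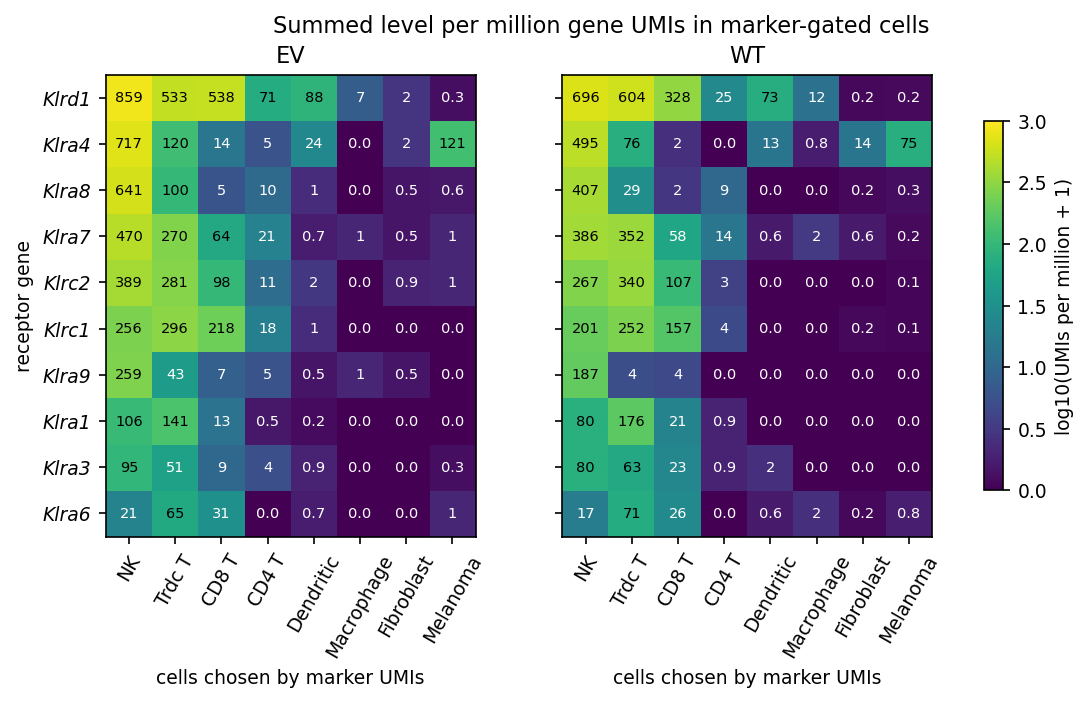
Summed level of each receptor gene (rows) in cells chosen by marker UMIs (columns), for EV (left) and WT (right). Color gives log10(CPM + 1) and the printed values are CPM; NK cells hold the highest level of most genes, Klra4 stands out in the melanoma column and Klrd1 in the dendritic column.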

How the data were processed

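Per the file headers and the labels, the authors deposited 10x 3′ v3.1 count matrices made with Cell Ranger 6.1.2, holding raw UMI counts per gene and hashtag antibody counts per cell; the submitters' processing notes name mm10. The study's methods, as read here, do not cover the single-cell experiment. Cells with at least 200 genes and at most 20% mitochondrial UMIs were kept and assigned to hashtags by a 2-component mixture; cells with several hashtags entered no replicate, and other doublets were kept. Cells were gated on marker UMIs as described. UMIs were summed per gate and hashtag and tested by edgeR 4.0.16 (quasi-likelihood, R 4.3.3; library totals, at least 20 UMIs per gene, Benjamini-Hochberg over all genes, threshold 0.05), with DESeq2 1.42.0 as an alternative. Comparisons within replicates had the hashtag as a block, since both classes of cells came from the same hashtag. Shares came from cells thinned to 2000 UMIs with scipy 1.17.1 permutation tests. Intervals are exact at 95% and cover counting error only. The fits were tested on simulated data.

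Gene lists covered other lectin receptors, adaptors, ligands and peptide loading, transcription factors, NK maturity and tissue residency. The members, lists and gates were chosen with earlier results of these data known; the Klrc1 split and odds-ratio settings were added after seeing the data. Named genes were the members, and up to 4 called genes of each list by size of change. Promoters and gene models came from RefSeq (GRCm38.p6) and GENCODE M21.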

Additional observations from a re-analysis of the deposited data

Results flagged for a closer look

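Some member transcripts appeared in cells that enter none of the tests, above the level of the macrophage-marker cells, where Klra4 gave 0 UMIs in EV and 1 in WT. Melanoma-marker cells held 436 Klra4 UMIs in EV and 765 in WT, beside 2 and 3 Klra8 UMIs. Dendritic-marker cells held 378 Klrd1 UMIs in 340 EV cells and 233 in 198 WT cells, with up to 32 and 67 in a cell. Macrophage-marker cells held 6 in 82 EV cells and 16 in 90 WT cells. No group had the 4 samples that a test for a single outlying replicate needs, so none was run.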

How the results depend on the processing

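Of the WT against EV estimates that changed direction, Klra4 in T cells came to 0.12 with the stricter filter of 500 genes and 10% mitochondrial UMIs, 0.0047 with DESeq2 and 0.017 with TMM factors. The estimate for Klra6, NK cells, WT against EV, came to -0.015 with the stricter filter and -0.26 with hashtags taken from the highest centered log count. Under that hashtag call Klrd1 in the Gzmc comparison came to 0.068, and with TMM factors that for Klrd1, Klrc1-positive against Klrc1-negative NK cells, to -0.0098. Among shares (WT minus EV, percentage points), Klrd1 came to 3.09 in NK cells and 1.99 in T cells without thinning, and at 1000 UMIs Klrc1 in NK cells to -0.82 and Ly49 in T cells to 1.496. The cause was not tested.

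Leaving out each replicate in turn gave -0.40 to 0.48 for Klra6 in NK cells, -0.85 to 0.26 for Klra1, -0.34 to 0.15 for Klra4 and -0.84 to 0.073 for Klra7 in T cells, -0.53 to 0.083 for Klra1 and -0.20 to 0.0024 for Klrd1 in the Gzmc comparison, and -0.039 to 0.21 for Klra9 in the Klrc1 comparison. For shares it gave -3.14 to 0.36 for Klrd1 in NK cells, -4.21 to 1.35 for Ly49 and -7.00 to 2.33 for Klrd1 in T cells.

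Members called in the Gzmc comparison were 3, but 1 with DESeq2, with a filter of 100 UMIs, with the other hashtag call and with no replicate block, 7 with at least 3 Gzmc UMIs, and 1 to 4 without 1 replicate. In the Klrc1 comparison 3 became 1 with no replicate block. Genes called over the whole table in NK cells, WT against EV, were 0, but 110 with DESeq2, 250 with no filter, 13 with an NK gate of 3 UMIs, 12 without WT h3 and 1 with the other hashtag call, and in T cells 123 with DESeq2 and 1 with the other hashtag call. NK against T cells gave 2434, and 1548 without EV h8. The Gzmc comparison gave 870, and 450 with DESeq2, 560 without the block and 529 to 904 without 1 replicate. CD8 against CD4 T cells gave 578, and 972 with no filter and 303 to 644 without 1 replicate, and the Klrc1 comparison 31, and 6 without the block and 11 to 37 without 1 replicate. TMM shifted the median of all genes in NK against T cells from -0.14 to -0.04.

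No paired analysis was possible because EV and WT share no hashtag number. The odds ratios of the named pairs kept their side of 1 under all 60 settings tried, with pooled values without 1 replicate of 2.58 to 2.93 for Klra4 with Klra8 and 0.247 to 0.321 for Klra4 with Klrc1. With 60 to 305 NK cells in a replicate at 2000 UMIs, depth limits the rare Klra6 most.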

Other observations

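Over 70 sums of gates and replicates, the genes whose profile of log2(CPM + 10) was most like the Ly49 sum were Klrb1c (Pearson r = 0.938), Klre1 (0.927), Eomes (0.914), Styk1 (0.914) and Klrb1f (0.912), among 7352 genes compared. Klrb1c and Eomes were used to gate NK cells. For Klrd1 they were Cd7 (0.948), Klrk1 (0.947), A630072M18Rik (0.935), Klre1 (0.930) and Tbx21 (0.923). The sums share libraries and overlapping gates, so these values are descriptions with no test.

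Among dendritic-marker cells, Klrd1 was found in 41 of 134 EV and 22 of 101 WT cells with Xcr1 or Clec9a, genes of cross-presenting dendritic cells, and in 31 of 150 and 11 of 90 cells with Ccr7, which marks migratory ones. Siglech-positive cells gave 139.8 CPM of Klrd1 in EV and 269 CPM in WT.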
